A study of Mus musculus with 4 samples.

Results

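Intergenic distal regions of open chromatin that were called in control macrophages and not in esculetin-treated macrophages are described here. The cells were RAW264.7, a macrophage line from mouse, and open chromatin was measured by ATAC-seq, in which the Tn5 transposase cuts accessible DNA and tags it for sequencing. All 4 libraries came from wild-type cells given 25 ug/mL of fluorescently labelled oxidized LDL (DIL-oxLDL) over 24 h. DMSO, the solvent, was added for the 2 libraries of the control group, and esculetin, a coumarin found in plants, at 40 ug/mL for the 2 of the esculetin group. The peaks of the 4 lists were merged on chromosomes 1 to 19 and X (build mm10) wherever they overlapped by 1 bp. A region was selected on its calls when both control lists and neither esculetin list held a peak in it, its centre lay outside every annotated gene, and every transcription start site (TSS) was more than 3 kb away. The rule kept 1122 of 35988 merged regions. Each region was assigned to the nearest protein-coding TSS, and this assignment is by distance alone. Because the calls chose the regions, the contrast between control and esculetin is a description, and 2 libraries against 2 could not go below p = 0.33 in an exact two-sided permutation test. The labels do not say whether the libraries of a group came from separate cultures.

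Distal open regions outside genes commonly include enhancers, short stretches of DNA where transcription factors displace nucleosomes and act on promoters that can lie far away. In macrophages, the lineage factor PU.1 opens many such elements together with C/EBP and AP-1 factors, and signal-dependent factors such as NF-kB and STAT proteins join them after stimulation. The nearest gene is often, but not always, the gene that an enhancer acts on.

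The lists bore out a macrophage identity in part. Of 10 macrophage marker genes, control replicates 1 and 2 had a peak within 1 kb of the TSS at 4 and 5, and esculetin replicates 1 and 2 at 1 and 3. Spi1, which encodes PU.1, was called in all 4, whereas Csf1r, Adgre1, Itgam, Fcgr3 and Mertk were called in none. Of 32 markers of T cells, B cells, fibroblasts, epithelial and endothelial cells, a single fibroblast gene was called, in control replicate 2. The libraries differed in the length of their peak lists more than in depth. The lists held 19453 and 27698 peaks in the controls and 8559 and 12660 with esculetin, while the background coverage, solved from the deposited fold and p of the peaks, was 6.51, 4.08, 4.97 and 4.1 in the same order.

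The promoters of 3 genes given 3 or more of the regions are shown, since the lists placed peaks within 1 kb of their TSS that can be set against the distal calls. Each sequence is RefSeq's for build GRCm38.p6 (mm10), from 250 bases before to 50 after a TSS, on the strand of the gene. Capitals mark matches, on either strand, to the letters TTCNNNGAA (STAT), GGANTTTCC (NF-kB), GAAANNGAA (IRF), TTGCNNAA (C/EBP), AGGAAGT (PU.1/ETS), AGGGGGC (CTCF) and TGACNNNGC (NRF2). No sequence of the distal regions themselves was read here.
Socs3, chr11:117969317-117969616, minus strand: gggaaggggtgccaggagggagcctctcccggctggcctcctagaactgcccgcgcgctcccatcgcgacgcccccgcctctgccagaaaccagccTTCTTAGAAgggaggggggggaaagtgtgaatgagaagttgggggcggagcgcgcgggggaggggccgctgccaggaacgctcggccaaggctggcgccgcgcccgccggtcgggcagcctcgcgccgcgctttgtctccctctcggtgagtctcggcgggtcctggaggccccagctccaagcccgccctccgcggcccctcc
Nfkbia, chr12:55492598-55492897, minus strand: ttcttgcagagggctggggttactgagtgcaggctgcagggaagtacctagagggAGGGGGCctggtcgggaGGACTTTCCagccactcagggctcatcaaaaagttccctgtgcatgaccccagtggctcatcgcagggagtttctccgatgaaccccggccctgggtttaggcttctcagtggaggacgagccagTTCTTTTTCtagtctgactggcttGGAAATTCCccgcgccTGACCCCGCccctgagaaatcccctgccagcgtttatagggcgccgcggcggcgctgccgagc
Vav3, chr3:109340433-109340732, plus strand: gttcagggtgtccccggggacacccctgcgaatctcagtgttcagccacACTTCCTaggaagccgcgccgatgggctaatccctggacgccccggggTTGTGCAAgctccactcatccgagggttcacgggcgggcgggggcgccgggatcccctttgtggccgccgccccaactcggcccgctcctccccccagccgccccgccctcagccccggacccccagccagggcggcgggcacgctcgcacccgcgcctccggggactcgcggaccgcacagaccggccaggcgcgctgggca
In the promoter of Socs3 the STAT letters began at -154. In that of Nfkbia the NF-kB letters began at -178 and at -29. In that of Vav3 the PU.1/ETS letters began at -201 and the C/EBP letters at -153. Of all 21045 promoters of this length, 7.76% held the STAT letters, 1.29% the NF-kB letters, 8.1% the IRF letters, 10.3% the C/EBP letters, 9.1% the PU.1/ETS letters, 13.0% the CTCF letters and 13.0% the NRF2 letters. Among the 955 promoters of genes given a region, the shares were, in the same order, 7.02%, 1.57%, 7.23%, 9.53%, 8.48%, 13.6% and 15.5%. Such a match is a run of letters and does not show binding.

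Control-only calls made up 1122 of 5908 intergenic distal regions (18.99%), against 13.9% of all merged regions. Of the 1900 intergenic distal regions called in both controls, 59.1% (56.8 to 61.3, exact 95% binomial interval, which covers counting error only) were called in neither esculetin library, against 36.3% of all regions called in both controls. The share was higher, at 68.8% (67.1 to 70.5), for distal regions inside genes. A further 405 were called in all 4 libraries, 314 in both controls and esculetin replicate 2, and 59 in both controls and esculetin replicate 1. In the opposite direction, 70 intergenic distal regions were called in both esculetin libraries and in neither control.

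The number depended on the length of the lists. When each list was reduced to its 8559 strongest peaks by −log10 q, the length of the shortest list, 121 intergenic distal regions were called in both controls only and 122 in both esculetin libraries only. The excess of control-only regions was not present between lists of equal length, but equal lengths favour such a balance by construction. Of the 1122 regions, 101 were also control-only in the reduced lists. How far list length reflects the treatment or the libraries cannot be told apart with 2 libraries a group.

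**Figure D1:**
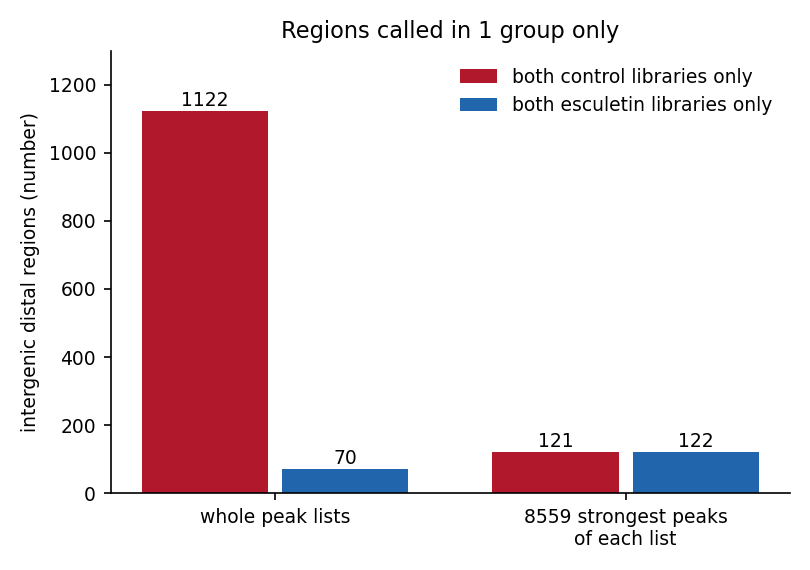
Number of intergenic distal regions (y axis) called in both control libraries only (red) or both esculetin libraries only (blue), with the whole peak lists and with the 8559 strongest peaks of each list. The whole lists gave 1122 against 70, and lists of equal length gave 121 against 122.

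The regions were of middling strength. Their width had a median of 347 bp (206 to 1225), against 285 bp for all intergenic distal regions, and together they covered 442 kb. Summit coverage, the pile-up of fragments at the highest point, had a median of 32 in control replicate 1 and 26 in control replicate 2. Divided by the genome-wide background of the library, this was 4.92-fold and 6.37-fold. Intergenic distal regions called in all 4 libraries were stronger in the same control libraries, at 7.53-fold and 10.1-fold, and were also wider, with a median of 522 bp. Within the control lists, ranked by the deposited fold enrichment over local background, the median percentile of the control-only regions was 47.5 in replicate 1 and 42.5 in replicate 2. Only 299 (26.6%) lay at the 50th percentile or above in both lists, and 6 at the 90th or above in both.

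Since the rule asks for overlapping or joined peaks, the summits of both controls had to lie close together. Those of replicates 1 and 2 lay a median of 32 bp apart, and within 100 bp in 991 regions (88.3%). Across the 1122 regions, which share the same 2 libraries and are not independent, coverage over background in the replicates had a Spearman correlation of 0.57 and a Pearson r of 0.65 on the log2 scale.

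**Figure D2:**
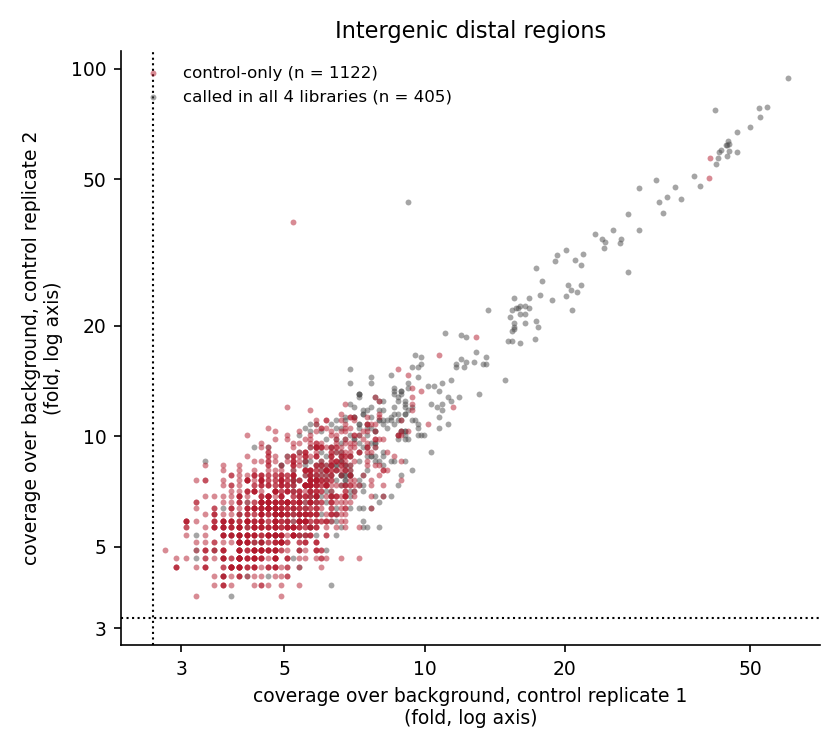
Summit coverage over background (fold, log axes) of intergenic distal regions in control replicate 1 (x) and control replicate 2 (y), with control-only regions in red and regions called in all 4 libraries in grey. Dotted lines mark the lowest callable coverage at genome-wide background, 2.61-fold in replicate 1 and 3.19-fold in replicate 2, and most control-only regions sit in the lower left.

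The share of regions without an esculetin call was lower at higher control coverage, in every class of region up to 12-fold. Among intergenic distal regions called in both controls, 79.5% were called in neither esculetin library where coverage in control replicate 1 was under 4-fold over background. The share was 63.8% (59.4 to 68.0) at 5 to 6-fold, 45.7% (40.8 to 50.6) at 6 to 8-fold, 19.1% (12.9 to 26.7) at 8 to 12-fold and 3.33% (0.693 to 9.43) over 12-fold. The last share is 3 of 90 regions. Those 3 included the Alkbh8 regions described below, at 40.9 and 40.7-fold, and several of the 90 were their neighbours. At matched coverage, promoters, meaning regions within 1 kb of a TSS, had lower shares, with 20.3% (18.4 to 22.2) at 5 to 6-fold and 8.64% (7.6 to 9.76) at 6 to 8-fold. Gene-body distal regions had shares of 70.9% (67.6 to 74.0) and 53.1% (49.1 to 57.0) in those bins. Over 12-fold the intervals of intergenic regions and promoters overlapped (2.57 to 11.3 for promoters). The missing esculetin call is what chose the regions, all regions share the same 4 libraries, and the classes were matched on coverage in 1 control library and not on width, so these shares are a description and their intervals cover counting error only. The share of gene-body distal regions was the higher one in each of the 6 bins, but the intervals of the 2 classes overlapped in all of them.

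**Figure D3:**
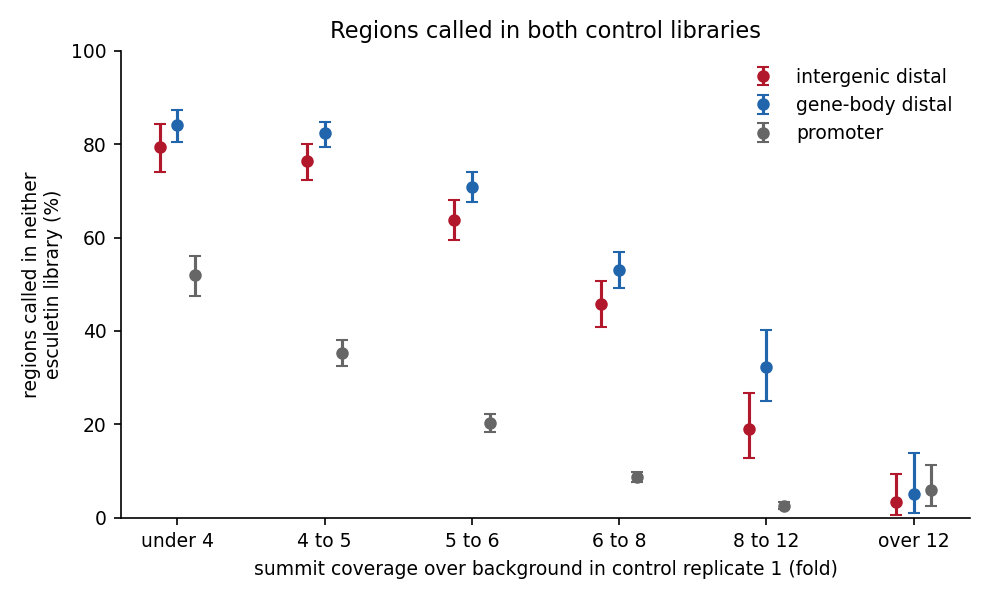
Share of regions called in both controls that were called in neither esculetin library (y axis, %), by summit coverage over background in control replicate 1 (x axis, fold). Points are shares and bars exact 95% binomial intervals; intergenic distal regions (red) and gene-body distal regions (blue) sit above promoters (grey) in every bin up to 12-fold.

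The lists hold no value for a region that was not called, so coverage in the esculetin libraries is known only to have missed the threshold. At genome-wide background, the lowest coverage that could be called was 15 in esculetin replicate 1 and 13 in replicate 2. Had each region kept its control coverage relative to background, 1099 of the 1122 (98.0%) would have passed the threshold of both esculetin lists, whichever control library was used. At 0.5 times that coverage, 33 (2.94%) would have passed both thresholds from both controls, and the control library decided this value. From control replicate 1, 59 (5.26%) and 36 (3.21%) would have passed in esculetin replicates 1 and 2, and from control replicate 2, 412 (36.7%) and 357 (31.8%). The same reckoning overstated calls between replicates of one group. Of intergenic distal regions in control replicate 1 that would have passed in control replicate 2, 61.2% were called there, and 54.9% in the reverse direction. From esculetin replicate 1 to esculetin replicate 2 it was 57.7%, and in the reverse direction 30.1%. From the controls to esculetin the shares were 17.1% and 14.9% for replicate 1 and 26.9% and 24.0% for replicate 2. These shares count the regions selected for having no esculetin call, so they restate the selection, and the lists they start from differ in length. Regions of esculetin replicate 1, the shortest list, were called at 57.7% (54.5 to 60.9) in esculetin replicate 2. In control replicates 1 and 2 they were called about as often, at 57.5% and 55.2%. Regions of esculetin replicate 2 were called at 30.1% (28.0 to 32.3) in esculetin replicate 1, and at 46.3% and 46.6% in the controls. Those of control replicate 1 were called at 17.1% (15.8 to 18.4) and 26.9% (25.3 to 28.5) in esculetin replicates 1 and 2. Group and list length cannot be told apart in these shares.

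Few of the regions lay beside an esculetin peak. The nearest summit in either esculetin list was a median of 27063.5 bp away. It lay within 1 kb in 29 regions (2.58%) and within 10 kb in 278 (24.8%), and the shortest distance was 285 bp. Whether the accessible site had moved or a call had been missed in those 29 was not tested.

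The regions lay a median of 30147.5 bp (95% interval 27594 to 32433) from the nearest protein-coding TSS, with extremes of 3005 bp and 1625325 bp. Intergenic distal regions called in all 4 libraries lay at a median of 35219 bp (32540 to 40935). From 10 to 50 kb fell 554 regions (49.4%), and 196 (17.5%) lay nearer than 10 kb. Beyond 500 kb lay 13 (1.16%, 0.618 to 1.97), against 4.94% (3.04 to 7.52) of those called in all 4. The latter included neighbours at a single locus, 2344435 to 2348615 bp from the TSS, which the interval counts as independent. Of the 1117 with a known side, 733 (65.6%) lay upstream of the assigned TSS, against 64.1% of all intergenic distal regions and 60.5% of those called in all 4. On chromosome X there were 9 (0.802%, 0.367 to 1.52), against 3.7% (2.09 to 6.04) of regions called in all 4 and 2.05% of all intergenic distal regions. By chromosome, control-only regions were between 7.44% (X) and 26.2% (19) of intergenic distal regions.

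**Figure D4:**
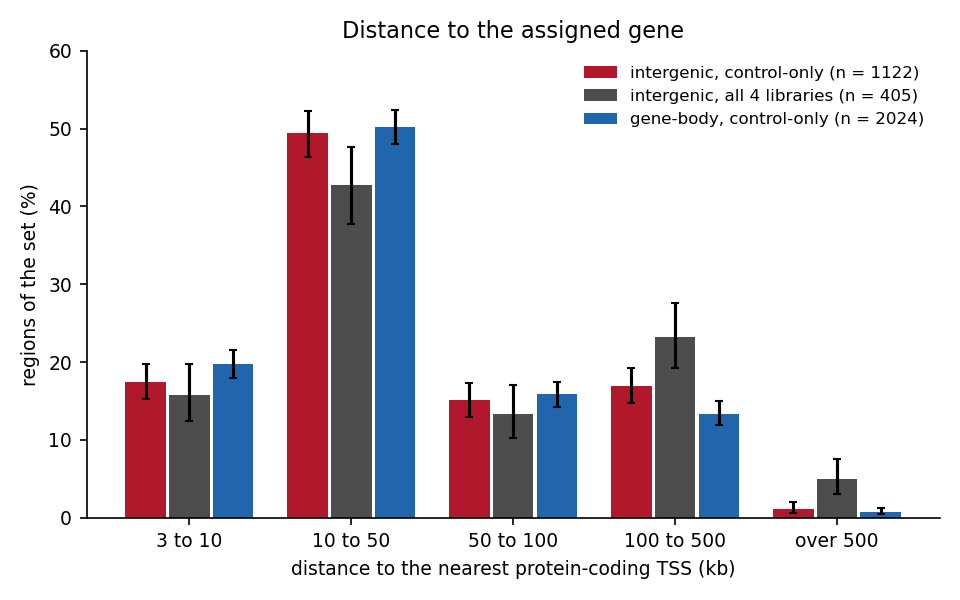
Share of each set of regions (y axis, %) by distance to the nearest protein-coding TSS (x axis, kb), with exact 95% binomial intervals as bars. Control-only intergenic regions (red) peak at 10 to 50 kb with 49.4%, and 1.16% of them lie beyond 500 kb, against 4.94% of intergenic regions called in all 4 libraries (grey).

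The regions were spread over many genes. They were assigned to 948 of 21631 protein-coding genes, of which 805 received 1 region, 116 received 2, 23 received 3 and 4 received 4. Stitched with a gap customary for clusters of enhancers, 158 regions (14.1%) formed 73 pairs and 4 groups of 3, with neighbouring centres at most 12484 bp apart, and the other 964 stood alone. The groups of 3 were near Vav3, Etnk1, Socs3 and Tspyl5. These counts rested on the lists used: there were 27 genes with 3 or more regions and 4 groups with the whole lists, 0 and 0 with lists of equal length, and 51 and 9 without esculetin replicate 2. Without control replicate 1 they were 112 and 34, and without control replicate 2 they were 118 and 33.

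Vav3, a guanine nucleotide exchange factor that acts in leukocyte adhesion and phagocytosis, had 4 regions. The 3 upstream lay 67277, 73555 and 85527 bp from the TSS. The region at chr3:109266909-109267348 had a coverage of 49 and 44 in control replicates 1 and 2, and that at chr3:109254964-109255349 had 50 and 44. Both were also control-only between lists of equal length. The one nearest to the gene was weaker, at 37 and 23. A further region, with 41 and 31, lay 173785 bp downstream of another annotated TSS inside Vav3. It was thus farther still from the promoter printed above. The Vav3 locus was called in the controls alone. Within 100 kb of the TSS printed above there were 6 and 8 control peaks and 0 in either esculetin list. At the TSS of the promoter printed above, the controls alone had a peak, with summits 60 and 68 bp after the TSS, just past the printed stretch, and a coverage of 30 and 29. It ranked low in the control lists, at percentiles of 2.4 and 14.6. Zc3h12c, an endoribonuclease of the family that degrades inflammatory mRNAs, likewise had 4 regions, 19852 to 103237 bp upstream, with coverage from 32 to 52 in replicate 1 and from 28 to 35 in replicate 2. Its promoter, too, was called in both controls and in neither esculetin library. That promoter peak also ranked low in the control lists, at percentiles of 0.463 and 16.4. None of the 4 distal regions was control-only between lists of equal length.

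Bcar3, an adaptor in integrin signalling, and Katnal1, a katanin-like microtubule-severing ATPase, also had 4 regions each. The strongest near Bcar3, 46894 bp upstream, had a coverage of 61 and 48 with both control summits at the same base, but another of its regions lay 599 bp from a summit of esculetin replicate 1. The Bcar3 promoter was called in both controls and esculetin replicate 2. That of Katnal1 was called in all 4 libraries, and its regions lay 91447 to 178260 bp downstream of the TSS, with coverage from 23 to 50 in replicate 1 and from 24 to 39 in replicate 2.

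Socs3, a feedback inhibitor of cytokine receptor signalling that STAT proteins induce, had 3 regions downstream, at 9291, 15097 and 27566 bp from the TSS. Coverage in control replicates 1 and 2 was 31 and 24 at the first (chr11:117959768-117960383), 40 and 32 at the second (chr11:117954108-117954430), and 38 and 21 at the third (chr11:117941459-117942142). The promoter printed above was called in all 4 libraries, with summits 71 to 114 bp after the TSS, past the printed stretch, and a coverage over background of 5.69, 9.32, 8.66 and 7.07 in the order of control and esculetin replicates, which overlapped between the groups. A peak with summits 5807 to 5818 bp downstream was also called in all 4. None of the 3 distal regions was control-only between lists of equal length, and the first stood at percentiles of 2.82 and 1.04 in the control lists.

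Nfkbia, which encodes the NF-kB inhibitor IkB-alpha and is itself an NF-kB target, had 3 regions downstream, at 11616, 18717 and 45375 bp. They were weak, with coverage of 20 and 23 at the first, 24 and 19 at the second, and 26 and 26 at the third. Esculetin replicate 2 had a summit 438 bp from the first. At the promoter, the controls had 2 summits each. Those 124 and 53 bp after the TSS had a coverage of 48 and 43, and those 590 and 563 bp after it had 30 and 33. The esculetin libraries had 1 summit each, 663 and 704 bp after the TSS, with a coverage of 51 and 50. None of the 3 distal regions was control-only between lists of equal length.

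Bhlhe40, a basic helix-loop-helix repressor of macrophage and clock gene programs, had 3 regions, at 89336 bp upstream and at 35469 and 49498 bp downstream. Coverage was 30 and 25 at the upstream region, 27 and 23 at the nearer downstream region, and 29 and 25 at the farther one. The promoter was called in all 4 libraries, at 9.37, 12.7, 9.06 and 11.2-fold over background, which overlapped between the groups. None of the 3 regions was control-only between lists of equal length. Within 100 kb of the TSS there were 7 and 9 control peaks, and the promoter was the sole peak of each esculetin library.

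**Figure D5:**
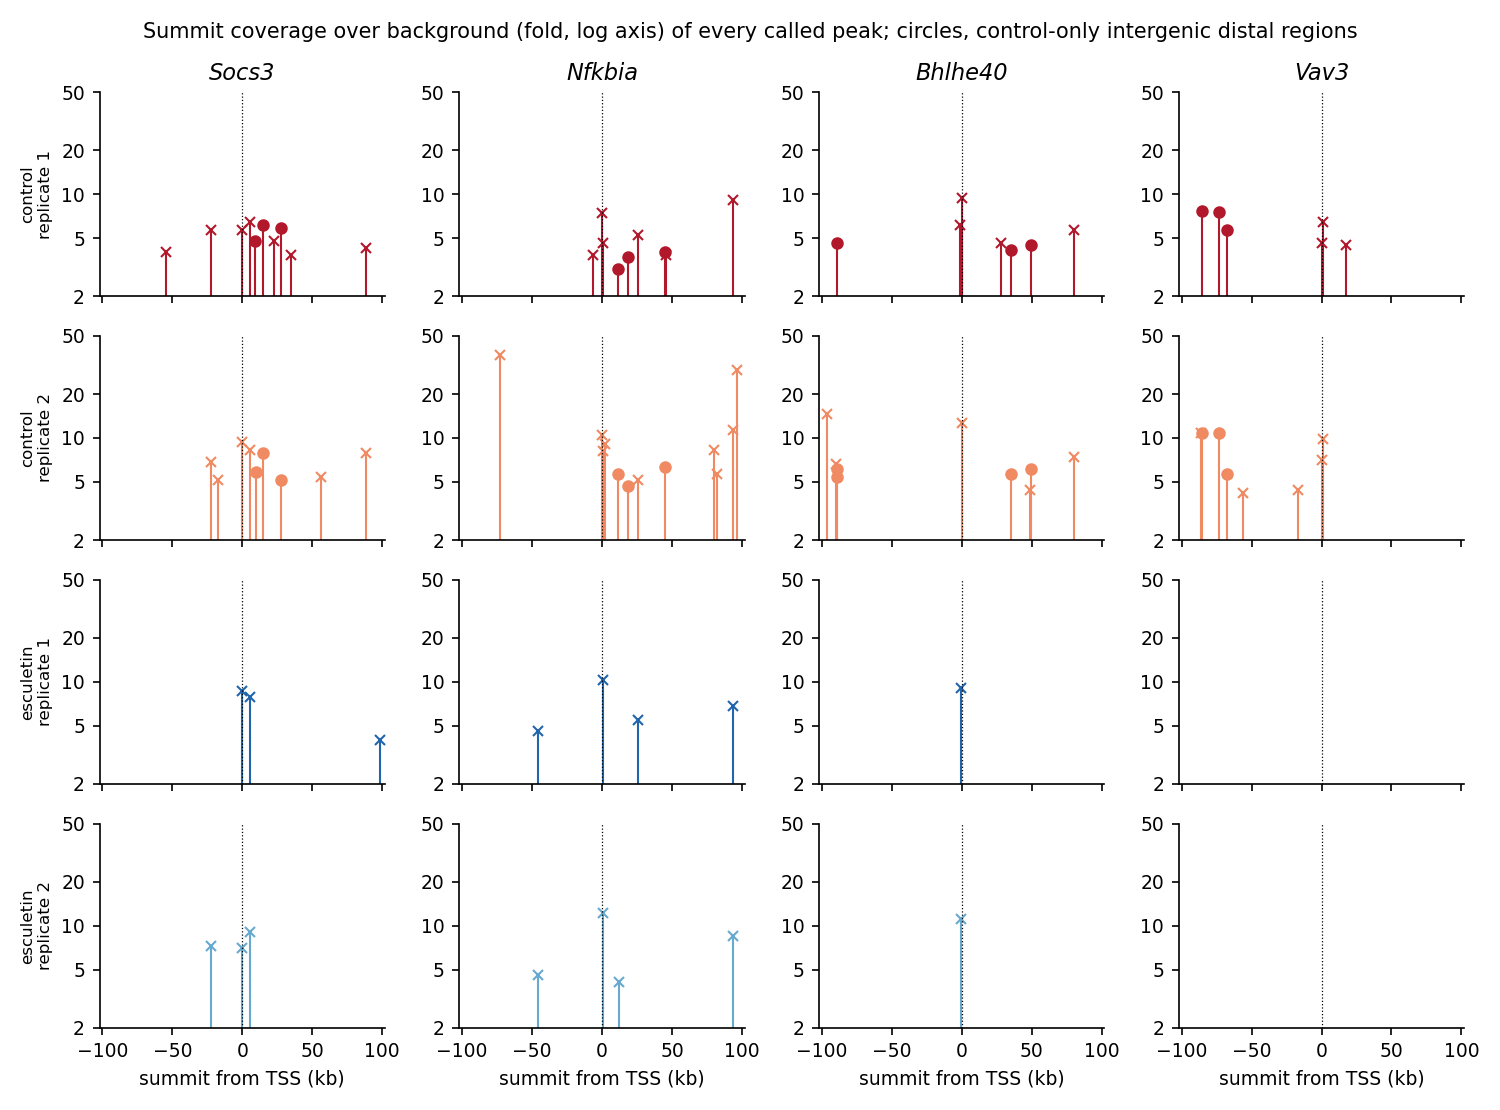
Summit coverage over background (y axis, fold, log axis) of every called peak by its distance from the TSS in the direction of transcription (x axis, kb) at Socs3, Nfkbia, Bhlhe40 and Vav3, with a row for each library. Circles are the control-only intergenic distal regions assigned to the named gene. Crosses are all other peaks, including any in control-only regions assigned to another gene. Esculetin peaks stand at the Socs3, Nfkbia and Bhlhe40 promoters, and none stands in the Vav3 window.

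Other genes given 3 regions included Ptk2 (focal adhesion kinase), Gja1 (connexin 43), Hpf1 (a cofactor of ADP-ribosylation), Cadps (a priming factor of secretory vesicles), Ccnd1 (cyclin D1) and Rbpj (the DNA-binding partner of Notch). The regions of Ptk2 lay 11243, 18772 and 36032 bp upstream, with coverage of 40 and 43, 35 and 24, and 35 and 20. Those of Hpf1 lay 6734, 22625 and 30579 bp upstream, with coverage of 37 and 28, 36 and 23, and 37 and 33. Both promoters were called in all 4 libraries. The regions of Gja1 lay 109397 to 221100 bp downstream and those of Cadps 170644 to 199901 bp upstream, and neither promoter was called in any library. These are distances at which the nearest gene is a loose guide.

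Lists of genes named for macrophage functions were compared with the 3.69% of all protein-coding genes (799 of 21631) that had a region assigned within 100 kb. Together, the lists' genes had 31 such regions, of which 1 was also control-only between lists of equal length. The lists were small, the assignment favours genes with long intergenic flanks, and no test was made. Of 24 macrophage lineage transcription factors, 5 had a region, among them Cebpa, Cebpb, Klf6 and Bhlhe40, while 13 had any intergenic distal region assigned in that range. Over all protein-coding genes, 2976 (13.8%) had any such region, and 26.8% of these had a control-only one, against 5 of 13 in this list. Of 19 interferon and JAK-STAT genes, 3 had a control-only region (Ifnar2, Socs3 and Cish), and 8 had any intergenic distal region. Of 21 pattern recognition and NF-kB genes, 2 had a control-only region (Myd88 and Nfkbia), and 8 had any. Of 14 AP-1 and ATF genes, 1 had a control-only region (Atf3), and 5 had any. Of 15 scavenger receptor and lipid uptake genes and 20 cytokines and inflammatory mediators, 0 had a control-only region. Any intergenic distal region was assigned to 2 and 4 of them. The markers of T cells, B cells, fibroblasts, epithelial and endothelial cells had 0.

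Cebpb encodes the C/EBP factor on which the study centres, and its region was picked out for that reason after its values were seen. The region lay 76444 bp downstream (chr2:167765183-167765535), with coverage of 44 and 30 in control replicates 1 and 2. The region of Cebpa, a related factor of myeloid differentiation, lay 20277 bp upstream with coverage of 30 and 20. That of Klf6, a zinc-finger factor of inflammatory macrophages, lay 23923 bp upstream (chr13:5837400-5837733) with coverage of 42 and 28. The promoter of Klf6 went the other way, being called in both esculetin libraries and in neither control.

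Among lipid and stress genes, Abcg1, which exports cholesterol to HDL, had a region 19106 bp upstream with coverage of 37 and 32, and Pltp, the phospholipid transfer protein, had one 9601 bp upstream with 33 and 40. Summits of esculetin replicate 2 lay 1238 and 1348 bp from them. LXR, efflux and storage genes with a region thus numbered 2 of 19, and PPAR and fatty acid genes 1 of 16 (Ppargc1b, a PPAR coactivator). NRF2 response genes with a region were 2 of 13. Gclc, the catalytic subunit of the first enzyme of glutathione synthesis, had one 16805 bp upstream (chr9:77737372-77738088) with coverage of 37 and 39, and it was the 1 region of the 31 that was also control-only between lists of equal length. Sqstm1, the autophagy receptor p62, had one 7190 bp upstream with 40 and 34. Any intergenic distal region was assigned within 100 kb to 3 LXR, efflux and storage genes, 7 PPAR and fatty acid genes and 6 NRF2 response genes.

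Among genes of macrophage function, chemokine receptor Ccr1 was the sole one of 17 chemokine genes, with coverage of 28 and 24. Osteoclast genes numbered 2 of 13, Dcstamp, a fusion receptor (41 and 33), and Prdm1, a repressor of osteoclast inhibitors (25 and 23). Surface genes numbered 2 of 17, Mpeg1 (perforin-2, 29 and 26) and Fcgr1 (the high-affinity IgG receptor, 25 and 18). Phagocytosis and cytoskeleton genes were also 2 of 17, Pik3cg (24 and 19) and Cdc42 (33 and 21), whose regions lay 717 and 1957 bp from summits of esculetin replicate 2. Any intergenic distal region was assigned within 100 kb to 7 chemokine, 5 osteoclast, 7 surface and 5 phagocytosis and cytoskeleton genes.

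The strongest regions, were taken as those with the highest values of the lower of their fold enrichment percentiles in the 2 control lists. The region of Ndufs4, a subunit of respiratory complex I, led (chr13:114254704-114255076), with coverage of 52 and 47 and percentiles of 92.6 and 92.5. It lay 133204 bp from the TSS, and the nearest esculetin summit was 286759 bp away. Next came the regions of Peg12 (44 and 43), Kif16b, a kinesin of early endosomes (61 and 52), Zfp326 (58 and 45), Tmem243 (46 and 41) and Gfra2, a receptor of the GDNF family (49 and 42). Those of Rbbp6, Edn1 (endothelin-1), Plekhm1 (an adaptor of lysosome fusion), Sema4b, Tmem236 and Fam50b followed. All 12 were also control-only between lists of equal length, against 101 of all 1122, which a choice of strong peaks itself favours. Kept at its control coverage, the Ndufs4 region would have reached 32.8 or more in either esculetin library, above the lowest callable coverage of 15 and 13.

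At the limits of the rule, the regions nearest to a TSS lay 3005 bp (Arhgap23), 3020 bp (Fcrl5) and 3029 bp (Usp7) away, and the first regions left out lay 2960 bp (Aqp11), 2952 bp (Obox2) and 2927 bp (Gm3415) away. The weakest calls by −log10 q were near Rfx8, Cry1 and Sertad2, at 1.74, 1.74 and 2.07 in control replicate 1. A local background of over 2 times the genome-wide value in a control library was found at 55 regions (4.9%). At the start of chromosome 9, 2 regions assigned to Alkbh8 had the highest coverage of all in control replicate 1, 266 and 265, but percentiles of 0.0668 and 0.036, and esculetin summits lay 394 and 1096 bp from them. Without the 55 regions, 1067 remained, at a median distance of 30600 bp.

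The promoters of the assigned genes were called more often than those of genes at large. Of the 799 genes with a region within 100 kb, 288 (36.05%, 32.7 to 39.5) had a promoter peak in all 4 libraries, against 26.2% of all protein-coding genes. With no limit of distance, the share was 35.8% (32.7 to 38.9) of the 948 assigned genes. It was 28.7% (23.9 to 34.0) of genes given an intergenic distal region called in all 4, also at any distance. Among the 799 genes, the promoter was called in both controls only in 43 (5.38%), against 3.67% of all protein-coding genes. It was called in no library in 287 (35.9%, against 53.7%), and in another combination of libraries in 181 (22.7%, against 16.5%). Genes share libraries and differ in the length of their flanks, so these shares are a description.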

How the data were processed

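ATAC-seq libraries of RAW264.7 cells (2 control, 2 esculetin) were grouped by the treatment in their labels. Replicate numbers follow the sample titles, but the peak names inside the lists of esculetin replicates 1 and 2 carry the numbers 2 and 3, and which numbering is right could not be settled; the groups are not affected. The authors used Trim Galore for trimming, Bowtie2 for alignment to mm10, Sambamba to discard duplicate and multi-mapping reads, and MACS2 for peaks, library by library. Peak calling options are not given in the sources used here, nor whether read ends were shifted for Tn5. The deposited lists hold the position and summit of each peak, its fold enrichment (a linear ratio), its −log10 p and −log10 q, and a score derived from the q. No read counts were used, so no count model was run. Removing multiply mapped reads lowers signal in repeats.

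Summit coverage and local background were solved per peak from the deposited fold and the deposited −log10 p (Poisson tail). A whole-number solution was found for 99.95% to 99.99% of peaks, and the solver was tested on simulated data. The lowest local background of a library was taken as its genome-wide background and stands for its depth. Genes and promoters came from RefSeq GRCm38.p6. The TSS was the 5′ end, with strand from the promoter table or, for other genes, from GENCODE vM39 by symbol, and with both ends used where no strand was known. In the promoter motif search, which left out chromosome 18, sequences matched 754 of the 948 assigned genes. The motif content of the regions was not analysed here, since the genome provided was of another build. The promoter motif search was added after the values were seen.

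The regions, gene lists and naming rule were chosen with earlier results of these data known. Named were the 12 strongest regions, those of the 10 genes with most regions, the 5 densest groups, up to 3 regions per gene list, and those at the limits of the rule. Cebpb, Cebpa, Ccnd1 and Rbpj were added afterwards. Some results that the naming rule covers are not reported here. Shares carry exact 95% binomial intervals, which cover counting error only. Alternatives left out each library, equalised list length, raised the q limit of the control lists, and varied the joining distance, gene set, TSS limit and TSS definition. The software was SciPy 1.17.1, NumPy 2.4.6 and pandas 2.3.3 under Python 3.11.15, with matplotlib 3.10.9 for plots.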

Additional observations from a re-analysis of the deposited data

How the results depend on the processing

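Of 56 recomputed values, 35 stayed within 1.5 times the reported count or within the interval of the reported median distance. Each of the 5 results moved under some alternative: the number of regions (1122 as reported), those past the esculetin thresholds at unchanged coverage (1099), the median distance (30147.5 bp), the genes given 3 or more (27) and the stitched groups of 3 or more (4). With the 8559 strongest peaks of each list, 121 regions were found, of which 101 would have passed the esculetin thresholds at unchanged coverage, and there were 0 genes given 3 or more and 0 groups. This alternative keeps fewer peaks by construction. Leaving out a library in turn gave 1183 to 2549 regions, medians of 30426.5 to 32918 bp, 1159 to 2548 regions past the thresholds, 30 to 118 genes and 5 to 34 groups. The highest of these came from leaving out a control library (2549 without control replicate 1 and 2314 without control replicate 2), which drops the demand that both controls agree in a call. Without esculetin replicate 2 there were 51 genes and 9 groups. Outside protein-coding genes only, there were 43 genes and 8 groups. The median distance was 41029 bp with a TSS limit of 10 kb, which removes the nearest regions, and 20735 bp with either end of every gene as TSS. With a gap of 25 kb there were 13 groups. At 0.5 times the control coverage, an alternative added after the data were seen, 33 regions would have passed the thresholds from both controls, with 36 to 59 from control replicate 1 and 357 to 412 from control replicate 2. Requiring a −log10 q of 3 in the controls, or joining peaks within 500 bp, moved none of the 5 results. The motif share of the regions was not run, as the genome provided was of another build. No paired analysis was possible because the results come from no test. The lists give no depth beyond the background coverage, and a region without a call has no value.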
